A study of Mus musculus with 102 samples.

Results

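Sorted microglia of the lumbar spinal cord from ABC-imKO mice given cisplatin and then AIBP were compared with those of untreated (naive) ABC-imKO mice, across every expressed gene. ABC-imKO (KO below) stands for the genotype Abca1 fl/fl Abcg1 fl/fl Cx3cr1-CreERT2, in which a tamoxifen-dependent Cre under the Cx3cr1 promoter can delete Abca1 and Abcg1. The cisplatin AIBP group holds 3 numbered samples, 7, 8 and 9, from KO mice given intraperitoneal cisplatin on days 1 and 3 and an intrathecal injection of AIBP on day 7. The naive group holds 3 numbered samples, 1, 2 and 3, from KO mice with no treatment and no injection, so the difference between the groups holds cisplatin, the injection and AIBP together. By their labels all 6 samples carry the floxed alleles and the Cre driver. They are 6 of the 17 biological samples of the series and 36 of its 102 sequencing runs. Beside them stand KO mice given cisplatin and intrathecal saline (3 samples), WT mice given cisplatin and AIBP (2 samples), WT mice given cisplatin and saline (3 samples) and WT naive mice (3 samples). Whether cells of several mice were pooled into a numbered sample, and whether or when tamoxifen was given, is not stated in the labels.

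Microglia are the resident macrophages of the central nervous system. ABCA1 and ABCG1 export cholesterol from cells to apolipoprotein A-I and to lipoprotein particles, and the liver X receptors (LXR) raise both genes when sterols build up, while low sterol in the endoplasmic reticulum activates SREBP2 and with it the genes of cholesterol synthesis. AIBP is a secreted protein that binds apolipoprotein A-I and speeds the removal of cholesterol from cells. Cisplatin is a platinum drug whose side effects include a painful neuropathy, in which spinal microglia have been studied as a source of inflammatory signals.

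RNA was measured as counts per gene. Counts of the 6 runs of a numbered sample (3 technical replicates on 2 lanes each) were summed, which gave between 54687679 and 76643616 counts in each of the 6 samples. Levels below are CPM (counts-per-million) with TMM-scaled library sizes. A gene was called when its adjusted p was under 0.05 in edgeR's quasi-likelihood test with Benjamini-Hochberg adjustment over the 20461 genes tested. Log2 fold changes, given ± SE, are cisplatin AIBP over naive unless another comparison is named.

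The samples labelled KO cisplatin AIBP differed from the other KO samples in some of the genes that separate KO from WT. The floxed genes do not settle the genotype, because reads from exons outside the floxed ones are counted too. Abca1 (chromosome 4, 53030787 to 53159895) stood at 65.7, 59.6 and 32.6 CPM in the samples labelled KO AIBP, against 105, 78.6 and 66.1 CPM in KO naive. Each KO AIBP sample lay below each KO naive sample, but the difference did not pass the test (-0.66 ± 0.28, adjusted p = 0.256). Abcg1 (chromosome 17, 31057675 to 31117988) stood at 44.6, 25.6 and 59.0 CPM in the samples labelled KO AIBP, against 41.6, 66.4 and 56.0 CPM in KO naive, with overlapping groups (-0.34 ± 0.32, adjusted p = 0.638). A wider check used the 19 genes at 10 CPM or more for which all 6 KO saline and KO naive samples lay on one side of all 8 WT samples. In the samples labelled KO AIBP, 3 of the 19 lay on the KO side (G530011O06Rik, Ddit4 and Gm9843), 2 lay within the WT range (Esr1 and Apoe) and 14 lay between the sides or were mixed. These genes were chosen for separating the other samples, by a gap of 3.50-fold for Esr1 but only 1.003-fold for Wsb2, so a place between the sides says little about a sample's genotype.

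Esr1, which encodes oestrogen receptor alpha (chromosome 10, 4611593 to 5005614), stood furthest from the KO side. It had 3.23, 0.712 and 0.589 CPM in the samples labelled KO AIBP, against 42.9, 42.3 and 62.8 CPM in KO saline and 43.4, 64.6 and 85.6 CPM in KO naive, and 0.225 to 12.1 CPM in the 8 WT samples. The gap held in the single technical libraries, which ranged from 0.0335 to 4.38 CPM in the 9 labelled KO AIBP, against 36.2 to 78.3 CPM in the 9 of KO saline and 15.9 to 109 CPM in the 9 of KO naive. The fold change was -5.41 ± 1.35 (adjusted p = 0.0475), and the call was lost without KO AIBP 8 or 9 or any 1 of the KO naive samples. CreERT2 is a fusion of Cre with the ligand-binding domain of oestrogen receptor alpha; whether the Esr1 counts come from that transcript was not tested.

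Cx3cr1, the fractalkine receptor gene whose promoter drives the Cre, had 5551, 5249.6 and 7078 CPM in the samples labelled KO AIBP, against 1718, 2218 and 2771 CPM in KO saline, 3397, 4291 and 4871 CPM in KO naive and 5531 to 10656 CPM in WT. The samples labelled KO AIBP were the highest KO samples and overlapped the lower end of WT. G530011O06Rik, an X-linked transcript, went the other way: it had 26.1, 31.9 and 33.8 CPM in the samples labelled KO AIBP, inside the 17.6 to 56.3 CPM of the other KO samples and below the 100.0 to 281 CPM of WT. Sik1, the salt-inducible kinase gene, had 10.02, 10.99 and 4.16 CPM in the samples labelled KO AIBP, above both the 3.63, 3.62 and 3.57 CPM of KO naive and the 0.508 to 2.29 CPM of WT. It was not among the genes of the wider check. In single technical libraries Sik1 ranged from 0.456 to 17.3 CPM in those labelled KO AIBP and from 4.08 to 35.6 CPM in KO saline. The library medians were 8.39 and 8.31 CPM. Because of this disagreement, the comparison with KO naive was also run with WT naive in its place, a comparison chosen after the data were seen.

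**Figure D1:**
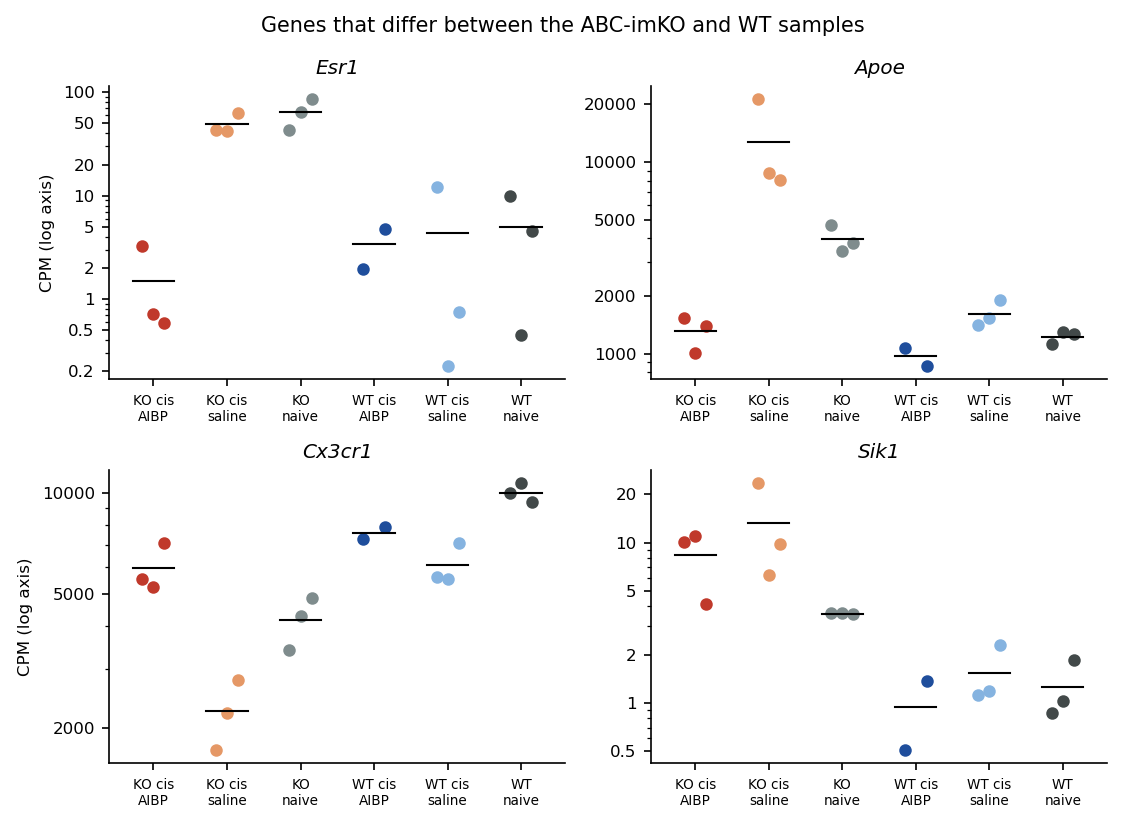
CPM of Esr1, Apoe, Cx3cr1 and Sik1 in each of the 17 biological samples (points, log axis) by group, with the group mean as a bar; cis stands for cisplatin. The samples labelled KO cisplatin AIBP lie with WT for Esr1 (0.589 to 3.23 CPM) and Apoe (1007 to 1541 CPM), and above the 3 WT groups for Sik1 (4.16 to 10.99 CPM).

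The sorted cells carried microglial markers, among them P2ry12, Tmem119, Cx3cr1, Siglech and Sall1, and the 6 genes of that list summed to 15055 to 22907 CPM in the samples labelled KO AIBP and 24855 to 34030 CPM in KO naive. Of the 12 marker lists, the monocyte list moved most. Its 10 genes summed to 275, 823 and 329 CPM in the samples labelled KO AIBP and to 11.2 to 31.1 CPM in KO naive. Of the 10 genes 9 had a positive fold change and 1 a negative one, with a median of 3.52. Fn1 made up most of that sum and was the list's 1 called member. The defining monocyte genes Ccr2 (0.271, 5.995 and 3.59 CPM, against 1.89, 1.97 and 0.305 CPM in KO naive) and Ly6c2 (0.0353, 6.54 and 0 CPM, against 0, 0.0167 and 0.0161 CPM) were low in CPM and highest in sample 8. Sample 8 was the highest of the 3 for Chil3, a gene of inflammatory monocytes and macrophages (13.3, 102 and 15.7 CPM in the samples labelled KO AIBP, against 0.103, 4.89 and 0.225 CPM in KO naive). Other lists were lower in the samples labelled KO AIBP: 3.50 to 10.9 CPM against 19.8 to 53.6 CPM for endothelial genes, 162 to 228 CPM against 265 to 397 CPM for astrocyte genes, 381 to 466 CPM against 468 to 798 CPM for oligodendrocyte genes and 451 to 802 CPM against 819 to 1536 CPM for B cell genes, where Ighm gave most of the sum and Ms4a1 and Pax5 had no count in the samples labelled KO AIBP. Border macrophage genes summed to 89.7 to 224 CPM in the samples labelled KO AIBP and 193 to 358 CPM in KO naive. Lyve1 had no count in either group, Clec10a none in the samples labelled KO AIBP and Cd163 none in KO naive. Of the 8 genes tested 4 were positive and 4 negative, and none was called. Neutrophil, T and NK cell, oligodendrocyte precursor, neuron and pericyte lists stayed under 21 CPM in all 6 samples. The part of other cell types in the results below was not tested beyond these levels, and in sorted bulk RNA fewer cells of a type and less RNA per cell cannot be told apart.

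Of the 20461 genes tested, 549 (2.68%) were called between the samples labelled KO cisplatin AIBP and KO naive: 371 higher (1.81%) and 178 lower (0.87%), with a median over all genes of -0.07. Counts of called list members below are to be read beside these shares, which take in many low-count genes. With a filter of 10 CPM in 3 samples 9465 genes were tested. Of these 681 were called higher and 326 lower, so both shares were larger there. The change reached 2-fold for 410 of the 549. In 369 of the 549 every sample labelled KO AIBP lay above every KO naive sample, and in 178 every one lay below. Over all 20461 genes tested these counts were 2073 and 2000. Separate groups therefore add little to a call. With scaling by library size alone the balance shifted to 615 higher and 164 lower. Without sample 8, 142 genes were called, of which 140 were among the 549; without KO AIBP 9 it was 266, without KO naive 1 and 2 it was 205 and 168, without KO AIBP 7 it was 823, and a fit of these 6 samples alone called 61. Sample 8 was the highest of the 3 samples labelled KO AIBP for 253 of the 371 genes called higher and the lowest for 133 of the 178 called lower. Of 93 called genes that the rule for named genes picked, 16 were called in each of 22 alternative settings. Leaving out 1 sample ended the call of 60 of the 93, with 55 lost without KO AIBP 8, 48 without KO naive 2, 40 without KO naive 1, 36 without KO AIBP 9, 24 without KO naive 3 and 6 without KO AIBP 7. Against WT naive, in a comparison that uses the same AIBP samples, 852 genes (4.16%) were called; all 371 genes called higher against KO naive were positive there and 176 of the 178 called lower were negative.

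**Figure D2:**
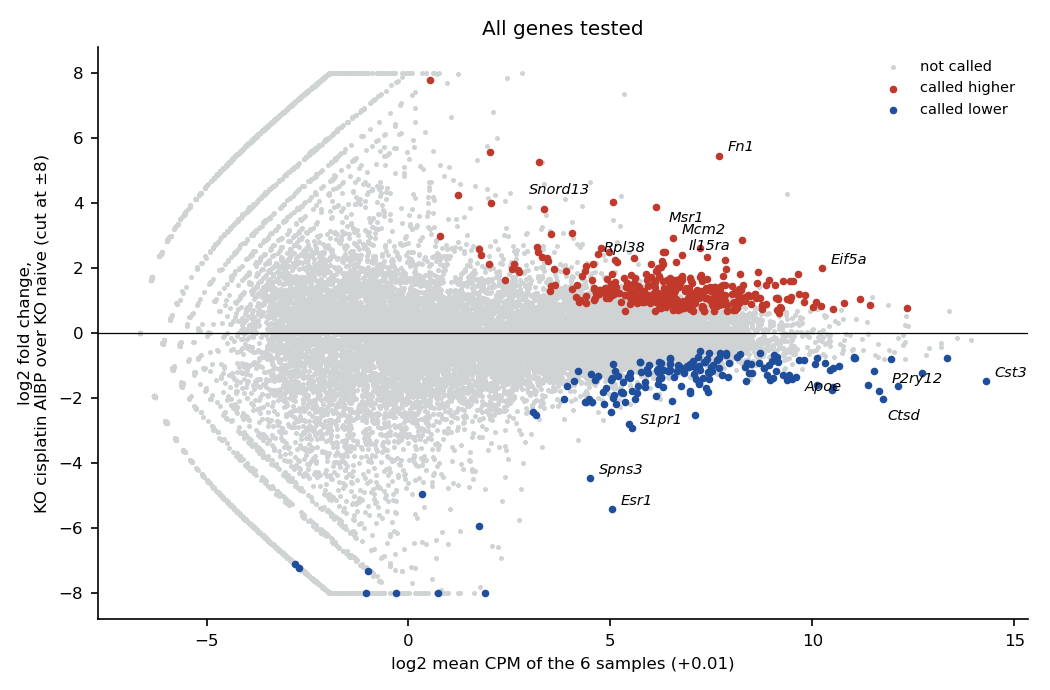
Log2 fold change (cisplatin AIBP over naive, y axis, cut at ±8) against log2 mean CPM (x axis) for the 20461 genes tested in KO microglia, 371 called higher in red, 178 called lower in blue and the rest in grey. Among the called genes at 10 CPM or more, the largest falls are those of Esr1 (-5.41) and Spns3 (-4.47) and the largest rise is that of Fn1 (5.46).

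Genes that mark resting microglia were lower in the samples labelled KO AIBP. Of 18 such genes tested, 11 fell (61.1%, against 0.87% of all genes tested) and none rose, with a median of -0.86. P2ry12, the ADP receptor with which resting microglia sense injury (chromosome 3, 59216272 to 59262871), had 1861, 754 and 1729 CPM in the samples labelled KO AIBP, against 4323, 4943 and 5817 CPM in KO naive. The groups were far apart and sample 8 was the lowest (-1.80 ± 0.33, adjusted p = 0.00997). Cst3, which encodes the protease inhibitor cystatin C and was among the most abundant transcripts, had 10094, 9441 and 12210.1 CPM in the samples labelled KO AIBP, against 27381, 29076 and 31784 CPM in KO naive (-1.47 ± 0.20, adjusted p = 0.00204). Gpr34, a lysophosphatidylserine receptor, had 790.4, 349 and 831 CPM in the samples labelled KO AIBP, against 1941, 2159 and 2522 CPM in KO naive (-1.75 ± 0.30, adjusted p = 0.00689). P2ry13, the neighbouring ADP receptor gene, fell by 0.93 on the log2 scale (adjusted p = 0.00627), and so did Tmem119 (by 0.80, adjusted p = 0.0227). Cx3cr1 was the 1 member of the list with a higher mean in the samples labelled KO AIBP, and it was not called (0.51 ± 0.18, adjusted p = 0.184).

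P2ry12 and Cst3 were also low in KO saline, at 1306, 1123 and 1306 CPM and at 8810.0, 6475 and 6811 CPM. For Cst3 every KO saline sample lay below every sample labelled KO AIBP. Neither gene passed the test between KO AIBP and KO saline (adjusted p = 0.984 and 0.706). In that comparison 17 of the 18 genes were positive and 1 was negative, with a median of 0.26, and only Cx3cr1 was called. Against WT naive 10 of the 18 were called lower. The count of 11 moved to 4 without KO AIBP 8, to 7, 4 and 7 without KO naive 1, 2 and 3, and to 1 in the fit of the 6 samples alone; Cst3 was called in each of the 22 alternative settings, and P2ry12, P2ry13 and Gpr34 in all of them but that fit. Tmem119 was not called without KO AIBP 8 or KO naive 1 or 2. Of 14 transcription factors that set microglial identity none was called, and the smallest p was that of Mef2a, with 389.7, 206 and 294 CPM in the samples labelled KO AIBP against 599, 495 and 533 CPM in KO naive (-0.87 ± 0.22, adjusted p = 0.0521).

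Disease-associated microglia are a state described in neurodegeneration, with higher lipid-handling and lysosomal genes and lower resting markers. Of its 23 genes 2 rose and 4 fell (26.1% called, against 2.68% of all genes tested). The median was -0.38, and it was 0.06 against WT naive. Cathepsin D (Ctsd), a lysosomal protease, had 1545, 1195 and 1316 CPM in the samples labelled KO AIBP, against 5455, 5464 and 5772 CPM in KO naive (-2.04 ± 0.28, adjusted p = 0.002). The tetraspanin gene Cd9 had 369, 336 and 494 CPM against 1024, 1024 and 1116 CPM (-1.40 ± 0.21, adjusted p = 0.00365). Trem2, the lipid-sensing receptor on which the full state depends, had 925, 832 and 1056 CPM in the samples labelled KO AIBP, against 1827, 1972 and 2136 CPM in KO naive (-1.08 ± 0.21, adjusted p = 0.013). In all 3 genes the groups did not overlap, as in nearly all called genes. The fourth that fell, Apoe, is described with the cholesterol genes. The 2 that rose were Cd63, another tetraspanin (719.6, 1013 and 958 CPM against 442, 399 and 473 CPM, 1.03 ± 0.22, adjusted p = 0.0198), and Fth1, the ferritin heavy chain (3138, 3891 and 3665 CPM against 1769, 2115 and 1997 CPM, 0.86 ± 0.19, adjusted p = 0.0247). Spp1, osteopontin, showed a large change with wide spread, at 297, 1612 and 1864 CPM in the samples labelled KO AIBP against 76.5, 38.7 and 77.4 CPM in KO naive, and did not pass (4.29 ± 1.10, adjusted p = 0.0538).

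Lysosomal genes also split: of 25 tested 5 fell and 1 rose (24% called, against 2.68% of all genes tested), with a median of -0.43. Hexa, the alpha subunit of the enzyme that degrades GM2 ganglioside, had 563, 459.7 and 623 CPM in the samples labelled KO AIBP, against 1401, 1645 and 1939.9 CPM in KO naive (-1.6 ± 0.18, adjusted p = 0.00105). The others that fell included Ctsd, the membrane protein gene Lamp2 (-0.87 ± 0.19, adjusted p = 0.0233) and the cholesterol exporter gene Npc1. Gusb, beta-glucuronidase, rose (681, 596 and 815 CPM against 401, 451 and 523 CPM, 0.61 ± 0.15, adjusted p = 0.045). Ctsd, Hexa and Cd9 were called in each of the 22 alternative settings. The 5 calls moved to 2 without KO AIBP 8, KO naive 2 or KO naive 3, and the 4 of the disease-associated list to 2 without KO AIBP 8. Without KO AIBP 8 or 9 or KO naive 1 or 2 neither list had a gene called higher, and without KO naive 3 each had 1. The fit of the 6 samples alone called 3 genes of the disease-associated list and 2 of the lysosomal list, all lower.

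Among the cholesterol genes, the LXR targets called were lower and the synthesis genes called were higher in the samples labelled KO AIBP. Of 14 genes of the LXR and efflux list 2 fell (14.3%, against 0.87% of all genes tested) and none rose (median -0.58). The count that fell was 4 without KO AIBP 7 and 1 without KO AIBP 8 or KO naive 1. Mylip, an LXR target whose product is a ubiquitin ligase (chromosome 13, 45389742 to 45412022), had 86.4, 74.8 and 65.2 CPM in the samples labelled KO AIBP, against 208, 177 and 220.0 CPM in KO naive. The samples labelled KO AIBP also lay below the 98.2, 113 and 106 CPM of KO saline. The difference from naive passed (-1.42 ± 0.20, adjusted p = 0.00251) and was called in each of the 22 alternative settings, and that from saline did not (-0.49 ± 0.20, adjusted p = 0.706). Apoe, the main lipid carrier secreted by glia (chromosome 7, 19696109 to 19699188), had 1541, 1007 and 1389 CPM in the samples labelled KO AIBP, against 21278, 8744 and 8111 CPM in KO saline and 4693, 3421 and 3799 CPM in KO naive. It fell against both, by 1.6 on the log2 scale against naive (SE 0.30, adjusted p = 0.0115) and by 3.28 against saline (SE 0.32, adjusted p = 0.00112). Against WT naive, at 1119.8, 1296 and 1264 CPM, Apoe was not called (0.10 ± 0.30, adjusted p = 0.911), so its fall rests on the KO samples it is set against; it was not called against naive without KO AIBP 8 or KO naive 1 either.

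All 24 genes of the synthesis pathway tested had a positive fold change (median 1.07), 18 of them with every sample labelled KO AIBP above every KO naive sample, where 2073 of all 20461 genes tested were so separated. Only 2 of the 24 were called (8.33%, against 1.81% of all genes tested that were called higher). Cyp51, lanosterol demethylase (chromosome 5, 4081145 to 4104746), had 64.1, 74.4 and 75.1 CPM in the samples labelled KO AIBP, against 21.9, 23.4 and 32.3 CPM in KO saline and 23.1, 19.5 and 42.9 CPM in KO naive. It rose against naive (1.32 ± 0.28, adjusted p = 0.0195), and against saline the fold was as large but did not pass (1.46 ± 0.28, adjusted p = 0.34). Mvd, which makes isopentenyl diphosphate, had 23.3, 50.5 and 39.2 CPM in the samples labelled KO AIBP, against 16.2, 14.4 and 14.7 CPM in KO naive (1.32 ± 0.31, adjusted p = 0.0355). Neither was called without KO AIBP 8 or 9 or KO naive 1 or 2 or in the fit of the 6 samples alone, nor was Mvd without KO naive 3. Srebf2, which encodes SREBP2 itself, had 37.6, 69.2 and 40.1 CPM against 19.4, 20.3 and 28.9 CPM and was not called (1.10 ± 0.47, adjusted p = 0.268).

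Of 22 genes of lipoprotein uptake and lipid storage, 1 rose and 2 fell (13.6% called, against 2.68% of all genes tested). The median was -0.05, but 0.06 with scaling by library size alone and 0.32 against WT naive. Msr1, scavenger receptor A, which takes up modified lipoproteins (chromosome 8, 39581685 to 39642673), had 64.7, 149 and 178 CPM in the samples labelled KO AIBP, against 1.08, 14.5 and 11.2 CPM in KO naive (3.87 ± 0.86, adjusted p = 0.0272). KO saline was also above naive, at 303, 339 and 171 CPM, and reached higher than the samples labelled KO AIBP. That difference from KO saline was not called. The call was lost without KO AIBP 8 or 9 or any 1 of the KO naive samples. Scarb2, a lysosomal membrane receptor, had 121, 147 and 128 CPM against 269, 257 and 304 CPM (-1.07 ± 0.19, adjusted p = 0.00798), and Npc1, which moves cholesterol out of lysosomes, had 90.1, 31.7 and 40.3 CPM against 161, 136 and 116 CPM (-1.35 ± 0.32, adjusted p = 0.038). Scarb2 was called whichever sample was left out, and Npc1 was not called without KO AIBP 8 or 9 or any 1 of the KO naive samples.

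**Figure D3:**
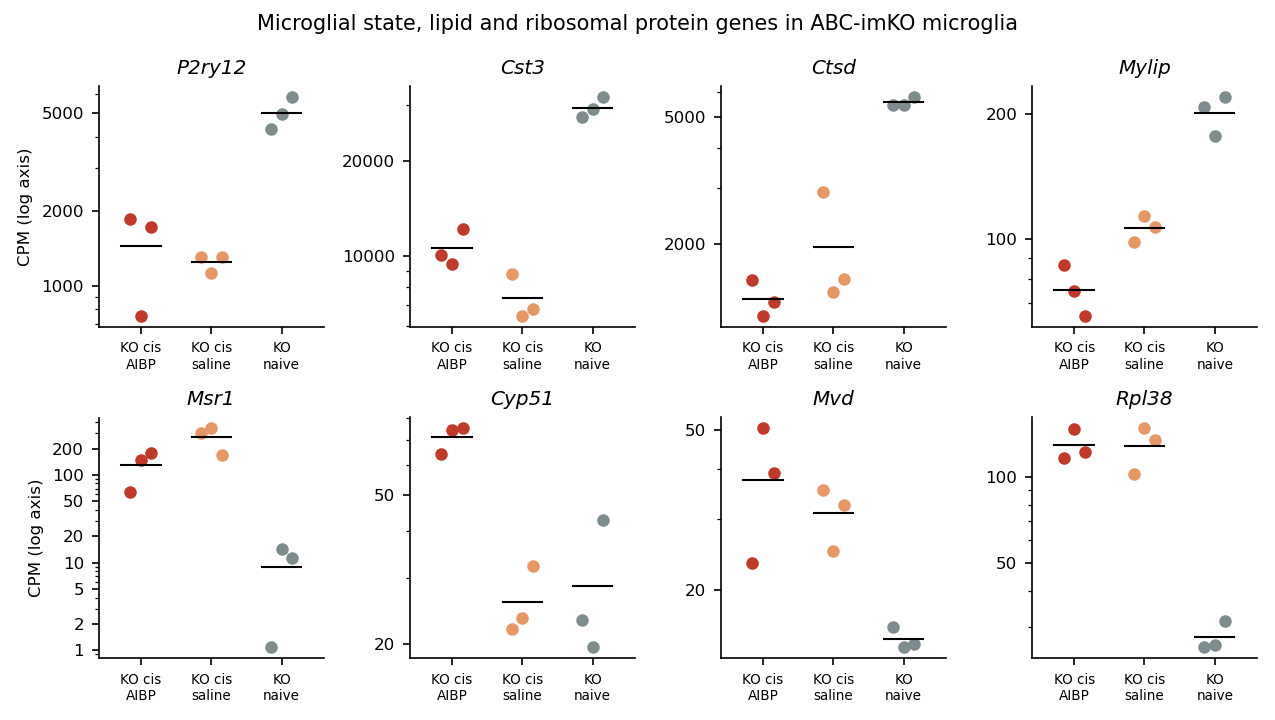
CPM (log axis) of 8 genes in the KO samples labelled cisplatin AIBP, in KO cisplatin saline and in KO naive, 3 samples each (points) with the group mean as a bar. P2ry12, Cst3, Ctsd and Mylip lie below naive in both cisplatin groups, Msr1 and Rpl38 above it in both, and for Cyp51 the AIBP samples (64.1 to 75.1 CPM) lie above the saline samples (21.9 to 32.3 CPM), a difference that was not called.

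The functional list with the largest share of called genes was that of ribosomal proteins. Of 81 genes of cytosolic ribosomal proteins, 63 rose (77.8%, against 1.81% of all genes tested) and none fell, with a median of 1.00. In 71 of them every sample labelled KO AIBP lay above every KO naive sample, where 2073 of all 20461 genes tested were so separated. Rpl38, a protein of the large subunit (chromosome 11, 114668524 to 114672331), had the smallest p of all genes, with 117, 147 and 122 CPM in the samples labelled KO AIBP against 25.4, 25.9 and 31.4 CPM in KO naive (2.22 ± 0.21, adjusted p = 0.00065). Rack1, a scaffold protein of the small subunit, had 604, 940.5 and 675 CPM against 277, 214 and 223 CPM (1.64 ± 0.19, adjusted p = 0.00114). Together the 81 genes took 1.61, 2.18 and 1.66% of counts in the samples labelled KO AIBP, against 0.847, 0.872 and 0.868% in KO naive. The means were 1.82 ± 0.320% and 0.862 ± 0.0136% (SD, n = 3 each), a ratio of 2.11, and the exact two-sided permutation p was 0.1, the smallest that 3 against 3 samples allow.

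Rpl38 stood at 102, 147 and 134 CPM in KO saline, and no ribosomal protein gene was called between KO AIBP and KO saline, where their median was 0.03. The count of 63 was 32 without KO AIBP 8, 34 and 36 without KO naive 1 and 2 and 12 in the fit of the 6 samples alone, and against WT naive it was 72. Rpl38, Rplp2 and Rack1 were called in each of the 22 alternative settings. Many ribosomal protein genes have processed pseudogenes with nearly the same sequence, so their counts are uncertain to the extent that reads were shared out among copies.

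Of 24 translation factors 6 rose (25%, against 1.81% of all genes tested) and none fell (median 0.76). Eif5a, which helps ribosomes through difficult stretches of peptide, had 992, 2600.2 and 2221 CPM in the samples labelled KO AIBP, against 329, 462 and 659 CPM in KO naive (2.00 ± 0.33, adjusted p = 0.00622). Eef1g, a subunit of the elongation factor complex, had 138, 222 and 212 CPM against 64.6, 48.99 and 62.3 CPM (1.7 ± 0.25, adjusted p = 0.00298). Of 20 genes of ribosome biogenesis 5 rose and none fell (median 0.83), among them nucleolin (Ncl, 263, 495 and 381 CPM against 122, 140.2 and 152 CPM, 1.46 ± 0.24, adjusted p = 0.00627) and nucleophosmin (Npm1, 279, 534 and 434 CPM against 139, 139 and 208 CPM, 1.36 ± 0.27, adjusted p = 0.0156), which act in the nucleolus. Sample 7 was the lowest of the 3 for Eif5a, Eef1g, Ncl and Npm1. Without KO AIBP 8 the counts were 3 and 1 and without KO naive 1 they were 3 and 2. Without KO AIBP 9 or KO naive 2 the biogenesis count was 2, and the count of translation factors was 9 without KO AIBP 7 and 4 without KO naive 2. Eif5a, Eef1g and Ncl were called whichever sample was left out, but in the fit of the 6 samples alone the counts were 1 and 0.

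Genes of energy supply were called higher too. Of 27 nuclear genes of the respiratory chain 13 rose (48.1%, against 1.81% of all genes tested) and none fell. All 27 were positive, and the median was 0.83. Cox6c, of complex IV, rose by 1.15 on the log2 scale (adjusted p = 0.0043). Outside the list, Uqcrb, a subunit of complex III and among the 10 smallest p-values of all genes, had 58.7, 70.5 and 63.7 CPM in the samples labelled KO AIBP, against 22.1, 24.0 and 25.7 CPM in KO naive (1.43 ± 0.16, adjusted p = 0.00105). Ndufa4, in the list, a small respiratory chain subunit, had 153, 176 and 163 CPM against 53.4, 66.5 and 80.6 CPM (1.30 ± 0.17, adjusted p = 0.00174). Of 11 mitochondrially encoded genes tested 1 rose (median 0.45): mt-Nd1, of complex I, had 3932, 2791 and 2756 CPM against 1634, 1364 and 1542 CPM (1.06 ± 0.16, adjusted p = 0.00317). All mitochondrially encoded genes together took 2.98, 1.91 and 1.82% of counts in the samples labelled KO AIBP, against 2.14, 1.53 and 1.62% in KO naive; the groups overlapped and the exact two-sided permutation p was 0.4. Of 15 genes of glycolysis 5 rose (33.3%) and none fell (median 0.85). Gapdh had 602, 1623 and 1104 CPM against 284, 388 and 421 CPM (1.61 ± 0.29, adjusted p = 0.00991), and lactate dehydrogenase A (Ldha) had 594, 1499 and 1063 CPM against 286, 337 and 415 CPM (1.6 ± 0.32, adjusted p = 0.0157). Sample 8 was the highest for both.

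Of 21 proteasome genes 10 rose (47.6%, against 1.81% of all genes tested) and none fell, and all 21 were positive (median 0.80). Psmb3, of the catalytic core, had 166, 300.1 and 241 CPM in the samples labelled KO AIBP, against 83.2, 85.3 and 115 CPM in KO naive (1.32 ± 0.22, adjusted p = 0.00622). Without KO AIBP 8 or 9 or KO naive 1 or 2 the count was 2, 3, 3 and 2. The corresponding counts were 6, 9, 8 and 6 for the respiratory chain and 1, 3, 0 and 2 for glycolysis, where it was also 8 without KO AIBP 7 and 3 without KO naive 3. In the fit of the 6 samples alone none of the 3 lists, nor the mitochondrially encoded list, had a called gene. None of the genes of these 3 lists was called between KO AIBP and KO saline, where the medians were -0.10 for the respiratory chain, 0.00 for the proteasome and 0.23 for glycolysis.

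**Figure D4:**
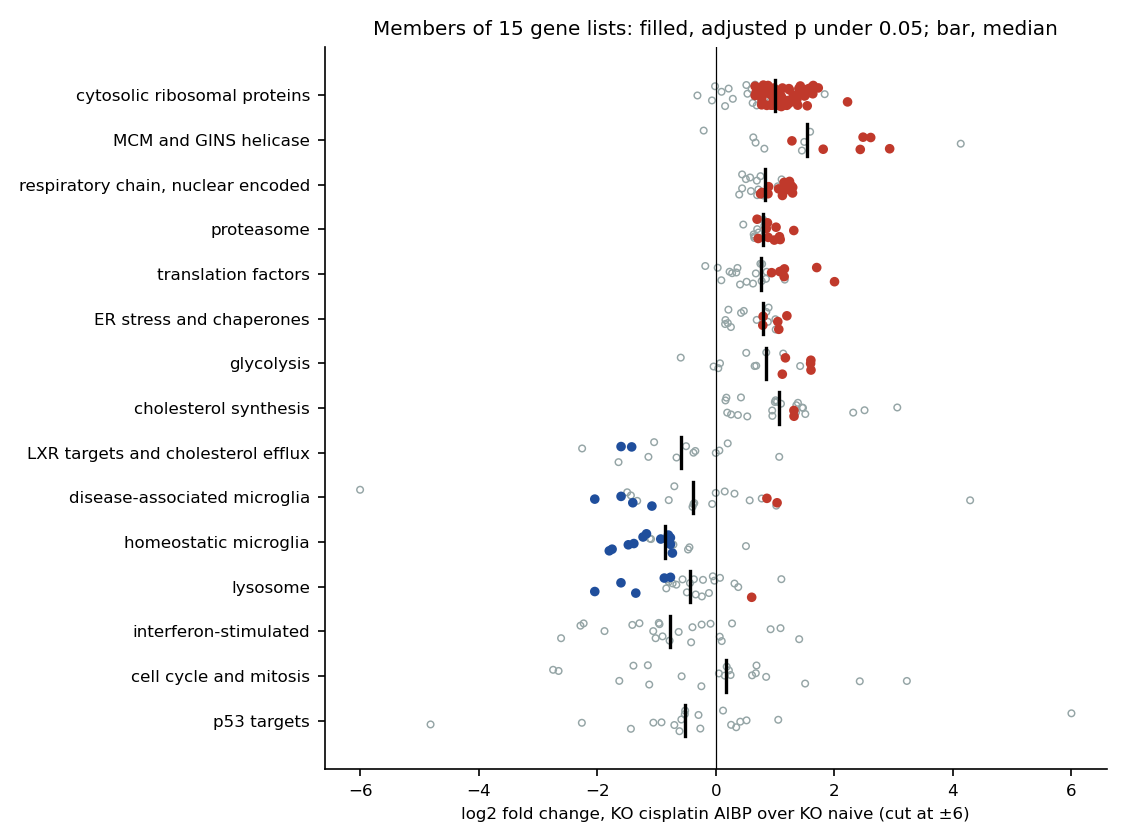
Log2 fold change (cisplatin AIBP over naive in KO, cut at ±6) of every tested member of 15 gene lists; filled points are called, red higher and blue lower, open points are not called and the bar is the list's median. All respiratory chain, proteasome and cholesterol synthesis genes and 78 of 81 ribosomal protein genes lie to the right of 0, resting (homeostatic) microglia genes other than Cx3cr1 to the left, and the cell cycle and p53 lists hold no called gene.

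Genes of the replicative helicase were also called higher. The MCM proteins form the ring that unwinds DNA ahead of the replication fork, GINS activates it, and CDT1 and CDC6 load it onto origins before S phase. Of 14 genes 6 rose (42.9%, against 1.81% of all genes tested) and none fell, and the median was 1.54. Mcm6 had 146, 312 and 305 CPM in the samples labelled KO AIBP, against 74.9, 150.1 and 184 CPM in KO saline and 29.6, 39.3 and 55.7 CPM in KO naive (2.61 ± 0.49, adjusted p = 0.0108). Mcm2 had 104, 191 and 205 CPM, against 17.4, 17.3 and 30.7 CPM in KO naive (2.93 ± 0.61, adjusted p = 0.0184). Mcm3, the member with the smallest p, had 203, 276 and 377 CPM, against 107, 133 and 111 CPM (1.28 ± 0.24, adjusted p = 0.0103). In each of these the groups were separate, as in nearly all called genes, with sample 7 the lowest of the samples labelled KO AIBP. Mcm5 (2.49 ± 0.56, adjusted p = 0.0291), Mcm4 (1.81 ± 0.42, adjusted p = 0.0355) and Gins2 (2.44 ± 0.61, adjusted p = 0.0468) were also called. Mcm7 (1.45 ± 0.40, adjusted p = 0.0692) and Cdt1 (1.59 ± 0.43, adjusted p = 0.0667) did not pass.

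In the list of 20 cell cycle and mitosis genes none was called (median 0.17, but 0.99 with 1 called against WT naive and -0.06 without KO AIBP 9). The smallest p there was that of Pcna, the sliding clamp of DNA polymerase (118, 87.8 and 104 CPM against 46.8, 82.8 and 64.1 CPM, 0.68 ± 0.24, adjusted p = 0.183). Lig1, the ligase that joins Okazaki fragments, was among the largest rises, with 52.1, 47.2 and 40.7 CPM in the samples labelled KO AIBP against 14.1, 26.4 and 31.3 CPM in KO saline and 9.08, 9.15 and 4.82 CPM in KO naive (2.6 ± 0.44, adjusted p = 0.00627). No helicase gene was called against KO saline, although 13 of the 14 were positive (median 0.64). The helicase count was 1 without KO AIBP 8, 2 without KO AIBP 9, 0 without KO naive 1, 1 without KO naive 2 and 2 in the fit of the 6 samples alone; against WT naive it was 7. In WT cisplatin AIBP Mcm6 stood higher still, at 338 and 419 CPM.

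Promoters are shown for 2 of these genes that hold the letters searched for, because genes of the replicative helicase are classical targets of E2F factors. The sequences are from RefSeq (build GRCm38.p6), on the gene's strand, and capitals mark the letters TTTGGCGC or, on the opposite strand, GCGCCAAA. Mcm5 is shown at chr8:75109334-75109393 (plus strand, 175 to 116 bases before the start) and Mcm6 at chr1:128359719-128359841 (minus strand, 136 to 14 bases before the start).
Mcm5: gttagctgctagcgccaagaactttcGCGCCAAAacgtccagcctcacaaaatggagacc
Mcm6: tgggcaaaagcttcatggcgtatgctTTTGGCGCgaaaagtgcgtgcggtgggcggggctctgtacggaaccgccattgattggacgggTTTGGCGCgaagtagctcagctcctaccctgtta
In the window from 250 bases before to 50 bases after the start, and on either strand, these letters stood in 4 of the 10 helicase promoters in the table (Mcm3, Mcm5, Mcm6 and Cdt1), in 7 of 289 promoters of genes called higher (2.42%) and in 114 of 11879 promoters of genes tested (0.960%). A second form searched, TTTCCCGC, stood in 4 of the 10, in 9 of the 289 (3.11%) and in 241 of the 11879 (2.03%). The genes called higher include Mcm3, Mcm5 and Mcm6 among the matches to the first form and Mcm3 among those to the second. Their shares are therefore not separate from the helicase counts. Promoters, not sites, were counted, sites of the 2 forms can overlap by a few letters, and Mcm3 held both forms. The promoter of Mcm2, another gene called higher, held neither form. A match describes the letters only, and binding was not measured.

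**Figure D5:**
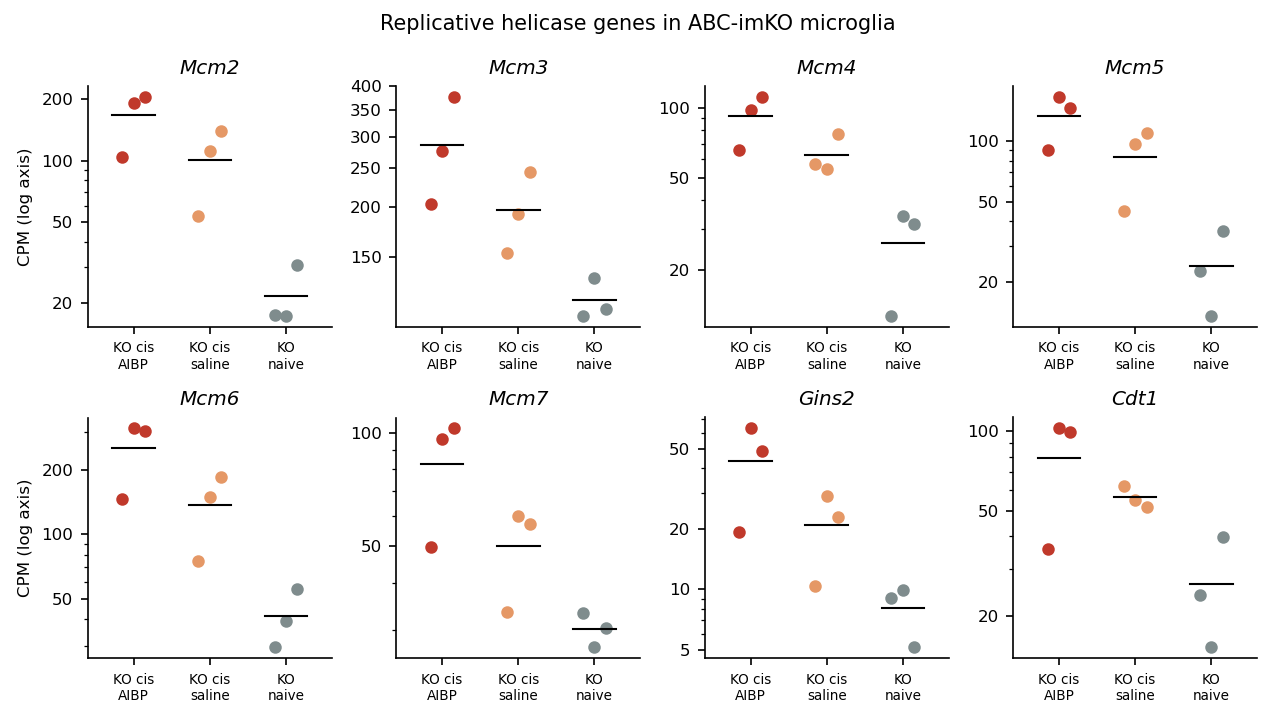
CPM (log axis) of 8 replicative helicase and loading genes in the KO samples labelled cisplatin AIBP, in KO cisplatin saline and in KO naive, 3 samples each (points) with the group mean as a bar. Mcm2 and Mcm6 lie above naive with AIBP (104 to 205 and 146 to 312 CPM, against 17.3 to 30.7 and 29.6 to 55.7 CPM in naive), and the saline samples overlap the AIBP samples.

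The single genes with the largest falls, picked by size alone, include the following. S1pr1, the sphingosine-1-phosphate receptor, had 13.3, 2.42 and 16.5 CPM in the samples labelled KO AIBP, against 13.2, 7.24 and 3.30 CPM in KO saline and 103, 77.5 and 65.2 CPM in KO naive (-2.93 ± 0.61, adjusted p = 0.0195). Slc40a1, the iron exporter ferroportin, had 54.9, 11.4 and 55.3 CPM against 161, 241 and 294 CPM in KO naive (-2.52 ± 0.54, adjusted p = 0.0222). Fcrl1, of the Fc receptor-like family, had 19.4, 5.19 and 8.42 CPM against 55.2, 70.2 and 105 CPM (-2.80 ± 0.56, adjusted p = 0.0158). Sample 8 was the lowest for all 3, and in each case KO naive lay wholly above, as in nearly all genes called lower. Spns3, of the spinster transporter family, had 5.40, 0.164 and 0.274 CPM against 44.8, 40.9 and 44.04 CPM (-4.47 ± 1.04, adjusted p = 0.0355). The transcription factor gene Zbtb20 had 52.2, 21.7 and 30.7 CPM against 168, 131 and 152 CPM (-2.10 ± 0.38, adjusted p = 0.00952), and Rgl1, a Ral exchange factor, had 13.4, 7.72 and 16.97 CPM against 55.9, 56.3 and 60.5 CPM (-2.18 ± 0.32, adjusted p = 0.00298). Rgl1 was called whichever sample was left out and Zbtb20 in all but 1 case (without KO AIBP 8), while S1pr1 was not called without KO naive 1 or 2, Fcrl1 without KO AIBP 8 or 9, Slc40a1 without KO AIBP 8 or 9 or KO naive 2 or 3, and Spns3 in those cases and without KO naive 1. The other large falls were St8sia6, Tmem204, Plxna4os1, Ebi3, Ifitm10, Fblim1 and Rn7sk, between -2.04 and -2.43. Plxna4os1 lies antisense to another gene, and without a stated strand setting its reads cannot be told from those of that gene.

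The single genes with the largest rises, picked by size alone, include the following. Fn1, fibronectin (chromosome 1, 71585520 to 71653200), had 255, 652 and 303 CPM in the samples labelled KO AIBP, against 639, 1088 and 723 CPM in KO saline and 1.74, 10.9 and 14.8 CPM in KO naive (5.46 ± 1.36, adjusted p = 0.0469). It belongs to the monocyte list whose levels are given above, and it was not called against WT naive. Ccr1, a chemokine receptor, had 71.0, 179 and 166 CPM against 17.5, 23.2 and 32.8 CPM in KO naive (2.50 ± 0.51, adjusted p = 0.018). Il15ra, the interleukin 15 receptor alpha chain, was the call with the smallest p among the immune genes named, at 144, 129 and 212 CPM against 32.6, 44.7 and 29.9 CPM (2.18 ± 0.25, adjusted p = 0.00114), and it was called in each of the 22 alternative settings. Il18rap, a chain of the interleukin 18 receptor, had 25.3, 20.3 and 11.8 CPM against 1.65, 1.69 and 0.755 CPM (3.81 ± 0.95, adjusted p = 0.0469). Xdh, xanthine dehydrogenase, had 5.82, 40.5 and 8.37 CPM against 0.567, 0.801 and 0.0643 CPM (5.25 ± 1.05, adjusted p = 0.0158), with sample 8 far above the other two. Without KO AIBP 8 or KO naive 1 or 2, none of Fn1, Ccr1, Il18rap and Xdh was called; Ccr1 was not called without KO AIBP 9 either, nor were Fn1 and Il18rap without KO AIBP 9 or KO naive 3, nor Il18rap without KO AIBP 7. The other large rises were Shmt1, Pilrb1, Hs3st3b1, Slc39a14 and Tmem238, between 2.49 and 3.08.

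A pair of short RNAs stood out in libraries primed with oligo(dT), since both are RNAs without a poly(A) tail. Snord13, a small nucleolar RNA, had 76.1, 38.4 and 73.4 CPM in the samples labelled KO AIBP, against 19.04, 39.3 and 65.9 CPM in KO saline and 2.53, 4.79 and 4.16 CPM in KO naive (4.03 ± 0.54, adjusted p = 0.002). Rn7sk, the RNA that holds the elongation factor P-TEFb inactive, went the other way, with 10.7, 5.72 and 9.52 CPM against 24.8, 35.1 and 46.6 CPM in KO naive (-2.04 ± 0.38, adjusted p = 0.0103). Snord13 was called in each of the 22 alternative settings, and Rn7sk was not called without KO AIBP 8.

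Of 29 cytokine and chemokine genes 2 rose (6.90%, against 1.81% of all genes tested) and none fell (median 0.24). Both are monocyte-attracting chemokines. Ccl2 had 201, 451 and 469 CPM in the samples labelled KO AIBP, against 66.0, 102 and 226 CPM in KO saline and 58.9, 116 and 109 CPM in KO naive (1.98 ± 0.47, adjusted p = 0.0384). Ccl12 had 1015, 1337 and 1359 CPM, against 1000.1, 1142 and 1648 CPM in KO saline and 359, 284 and 420.0 CPM in KO naive (1.80 ± 0.45, adjusted p = 0.0469). Neither was called without KO AIBP 8 or 9 or any 1 of the KO naive samples. Of 23 interferon-stimulated genes none was called; the median was -0.78, but it was 0.71 against WT naive, where 5 were called higher. Their lowest p was that of Ifit3, with 21.7, 3.57 and 13.5 CPM against 70.9, 66.3 and 51.4 CPM (-2.28 ± 0.64, adjusted p = 0.0794). Of 15 genes of antigen presentation 2 fell (13.3%, against 0.87% of all genes tested), both class I heavy chains. They were H2-K1 (756, 806 and 904 CPM against 1076, 1528 and 1580.0 CPM, -0.76 ± 0.17, adjusted p = 0.0256) and H2-D1 (1455, 1486 and 1697 CPM against 2403, 2586 and 2843 CPM, -0.76 ± 0.15, adjusted p = 0.0147). Class I genes are near-identical in places, so their counts are uncertain, and neither was called against WT naive or without KO AIBP 8 or KO naive 2 (nor was H2-K1 without KO AIBP 7 or 9 or KO naive 3).

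The lists of receptors and signalling genes are read beside the 0.87% of all genes tested that were called lower. Of 24 genes of Toll-like receptor and NF-kB signalling 1 fell, Nfkb1 (103, 57.0 and 79.6 CPM against 189, 196 and 185 CPM, -1.25 ± 0.31, adjusted p = 0.0434). Of 8 Fc receptor genes 2 fell, Fcrl1 and Fcrls, and of 13 complement genes none was called, with the smallest p for C1qa (2766, 2703 and 3947 CPM against 3847, 4849 and 4783 CPM, -0.52 ± 0.19, adjusted p = 0.19). Of 10 purinergic genes 3 fell: P2ry12, P2ry13 and Entpd1, the ectonucleotidase CD39, with 455, 308 and 547 CPM against 935, 1157 and 1265 CPM (-1.36 ± 0.25, adjusted p = 0.00997). Of 14 genes of the TGF-beta pathway 1 fell, the co-receptor endoglin (Eng, 63.8, 79.8 and 90.5 CPM against 190.4, 301 and 268 CPM, -1.7 ± 0.31, adjusted p = 0.00997). Without KO AIBP 8 none of Nfkb1, Fcrl1, Fcrls, Entpd1 and Eng was called. Without KO naive 2 this held for Nfkb1, Fcrls and Eng, without KO AIBP 9 for Nfkb1 and Fcrl1, without KO AIBP 7 for Fcrls, without KO naive 1 for Nfkb1 and without KO naive 3 for Nfkb1 and Fcrls. The fit of the 6 samples alone called 1 gene of these lists, in the TGF-beta pathway.

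No gene was called in the p53 and DNA repair lists, both of pathways known to respond to DNA damage. The median of 19 p53 targets was -0.52, but 0.32 against WT naive. Cdkn1a, the p53-induced inhibitor of cyclin-dependent kinases, had 65.9, 155 and 161 CPM in the samples labelled KO AIBP, against 272, 163 and 265 CPM in KO saline and 138, 265 and 318 CPM in KO naive (-0.92 ± 0.36, adjusted p = 0.232). Of 24 genes for the repair of platinum adducts none was called either, with the smallest p for Ddb1 (137, 262 and 190.0 CPM against 100.2, 114 and 118 CPM, 0.82 ± 0.30, adjusted p = 0.188). None of 14 glucocorticoid-responsive genes passed; Fkbp5 came nearest, with 232, 210.3 and 133 CPM against 72.7, 58.2 and 39.5 CPM (1.75 ± 0.57, adjusted p = 0.134). Genes of stress in the endoplasmic reticulum were called higher: of 18 genes 5 rose (27.8%, against 1.81% of all genes tested) and none fell. All 18 were positive (median 0.80). Manf, a secreted stress protein, had 146, 194 and 237 CPM against 91.1, 77.7 and 82.8 CPM (1.20 ± 0.28, adjusted p = 0.0368), and Hsp90b1 had 1278, 1312 and 1336 CPM against 787, 692 and 777 CPM (0.80 ± 0.15, adjusted p = 0.0108). The count of 5 was 0 without KO AIBP 8, 1 without KO AIBP 9, and 1, 0 and 2 without KO naive 1, 2 and 3, and it was 0 in the fit of the 6 samples alone. Beside the 1.81% of all genes tested, 2 of 20 metallothionein and antioxidant genes rose (10%) and 1 of 19 cytosolic heat shock genes (5.26%). The first 2 were peroxiredoxin 1 (Prdx1, 423, 621 and 561 CPM against 212, 199 and 292 CPM, 1.19 ± 0.21, adjusted p = 0.00741) and thioredoxin (Txn1, 1.24 ± 0.25, adjusted p = 0.0162). The heat shock gene was Hsp90ab1 (0.93 ± 0.21, adjusted p = 0.0293). Without KO AIBP 8 or 9 or KO naive 1 or 2 neither Txn1 nor Hsp90ab1 was called, and Prdx1 was not called without KO naive 2. In the fit of the 6 samples alone neither list had a called gene.

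Immediate early genes, which rise within minutes of stimulation or of tissue handling, varied widely within groups. None of 22 was called and their median was -0.03, or 0.10 with scaling by library size alone. Fos, taken as an example after its values were seen, had 2290.3, 1767 and 4306 CPM in the samples labelled KO AIBP, against 583, 142 and 1278 CPM in KO saline and 699.6, 4331 and 5501 CPM in KO naive. KO naive 1 was low and KO naive 2 and 3 were high. Against KO saline all 22 were positive (median 1.41), and none was called.

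What AIBP added to cisplatin and the injection is addressed by the comparison with KO cisplatin saline, in which 2 of 20461 genes were called (0.00977%). They were Apoe, which fell, and Cx3cr1, which rose (1.41 ± 0.19, adjusted p = 0.0201), and both are among the 19 genes that separated the other KO samples from WT. Before adjustment 1354 genes had a p under 0.05, and 3398 did in the comparison with naive. DESeq2 called 187 and limma-voom 5. Of the other genes with the smallest p, Fscn1, an actin-bundling protein, had 151, 239 and 270.0 CPM in the samples labelled KO AIBP, against 49.3, 61.6 and 113 CPM in KO saline, and did not pass (1.56 ± 0.30, adjusted p = 0.356). Fam3c, a secreted protein, had 105, 132 and 125 CPM against 224, 218 and 203 CPM (-0.83 ± 0.17, adjusted p = 0.383). Both were separate between the groups, and Fscn1 stood highest in KO naive, at 319, 475 and 459 CPM.

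The same treatment in WT mice gave the last comparison, the change from naive in KO minus that in WT. It called 2 genes of 20461 (0.00977%), with 1220 at an unadjusted p under 0.05, 116 by DESeq2 and 1 by limma-voom. C4b, complement component 4, had 9.46, 23.0 and 5.64 CPM in the samples labelled KO AIBP and 9.39, 9.38 and 7.30 CPM in KO naive, against 11.6 and 10.4 CPM in WT cisplatin AIBP and 0.0606, 0.0356 and 0.0159 CPM in WT naive. It was low in WT naive alone (difference of changes -7.63 ± 1.02, adjusted p = 0.0378), and reads may be shared with its near-identical neighbour C4a. Dlec1 had no count in the samples labelled KO AIBP and 171 counts over the 3 KO naive samples, against 402 counts over the 2 WT cisplatin AIBP samples and none in WT naive (adjusted p = 0.0378), so no fold is given. Fcrls, an Fc receptor-like gene of microglia, had 1174, 1619 and 1902 CPM in the samples labelled KO AIBP and 2352, 3021 and 2608 CPM in KO naive, against 2647 and 3178 CPM in WT cisplatin AIBP and 2065, 2124 and 1803 CPM in WT naive. It fell in KO against naive (-0.77 ± 0.17, adjusted p = 0.028), and the difference between the genotypes did not pass (-1.31 ± 0.25, adjusted p = 0.63). Cd72, a lectin-like receptor, had 16.2, 34.1 and 18.95 CPM in the samples labelled KO AIBP and 24.4, 21.3 and 31.1 CPM in KO naive, against 147 and 204 CPM in WT cisplatin AIBP and 19.02, 24.3 and 25.3 CPM in WT naive (-3.09 ± 0.59, adjusted p = 0.63). Neat1, a nuclear long noncoding RNA, had 209, 326 and 179 CPM in the samples labelled KO AIBP and 61.3, 86.0 and 64.5 CPM in KO naive, against 50.9 and 48.1 CPM in WT cisplatin AIBP and 121, 147 and 115 CPM in WT naive (3.12 ± 0.69, adjusted p = 0.822). Abhd12, a lysophosphatidylserine lipase, did not pass either (-0.76 ± 0.17, adjusted p = 0.822). With 2 and 3 samples a group these p-values do not show that the genotypes responded alike.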

How the data were processed

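Per the labels' protocols, sorted cells were lysed, RNA was primed with oligo(dT), amplified by PCR and made into Nextera XT libraries, read as pairs of 50 bases. Per the submitters' processing notes, the reads went through STAR 2.6.0a, with bcl2fastq before it and DESeq2 after it, quality tools FastQC 0.11.17 and MultiQC 1.7, and GRCm38 as the genome; neither the counting tool nor its strand setting is given in the sources used here. Raw counts were deposited by the authors for 53715 genes and 102 runs and were used here. Their table of normalized signal values was not used. Gene IDs were matched to GENCODE M21 (53620 of 53715). Samples held 45072898 to 76643616 counts; without molecular identifiers, depth limits counting error only.

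Counts were summed per numbered sample and tested with edgeR 4.0.16 (R 4.3.3): TMM factors 0.885 to 1.11, filterByExpr by group, a model of 6 group means fitted to all 17 samples (residual degrees of freedom 11, common biological coefficient of variation 0.922), quasi-likelihood F test, two-sided, Benjamini-Hochberg; the SE is the absolute log2 fold change over the square root of F. Since nothing says that numbered samples are separate animals, the p-values reflect only how far these samples spread. Alternatives used DESeq2 1.42.0 and limma 3.58.1. Shares were tested by exact permutation over the 6 samples.

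The comparison, the 43 lists (31 of function, 12 of markers) and the tests were chosen with earlier results of these data known. Named genes are Abca1 and Abcg1, the 15 largest rises and falls at 10 CPM or more in the higher group and the 10 smallest p-values. Up to 4 called members per list (or the 1 with the smallest p) and the 5 smallest p-values of the other comparisons were added. Gene models and pseudogenes were left out of the largest rises and falls and of the other comparisons only. The genes of the label check, the other marker genes given, Cd63, Fth1, Spp1, Gusb, Mcm4, Mcm7, Gins2, Cdt1, Srebf2, Tmem119, Dlec1 and Fos were added after their values were seen. Some genes that the rule picks are not reported here.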

Additional observations from a re-analysis of the deposited data

Results flagged for a closer look

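A pair of genes differed between the genotypes in their change from naive to cisplatin AIBP, by edgeR's test of that difference. For C4b the adjusted p was 0.0378: the change from naive was 0.55 ± 0.59 on the log2 scale in KO (adjusted p = 0.698), while the 3 WT naive samples held 6 counts in all. For Dlec1 the adjusted p was 0.0378 as well: the samples labelled KO cisplatin AIBP and the WT naive samples held no count, and KO naive and WT cisplatin AIBP held 171 and 402. Leaving out any 1 sample left 0 or 1 call in this comparison.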

How the results depend on the processing

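The 549 calls against KO naive became 1007 with a filter of 10 CPM in 3 samples, 1721 with DESeq2, 61 in a fit of the comparison's groups alone (57 shared with the 549), 311 without technical replicate 2, 2197 with technical replicates as libraries and 852 with WT naive in place of KO naive (442 shared with the 549, 0 called the other way). The range was 142 to 823 when 1 sample was left out. limma-voom gave 769, of which 396 were higher. The 2 calls against KO saline became 6 without a filter, 187 with DESeq2, 5 with limma-voom, 0 in the groups alone (609 at an unadjusted p under 0.05), 1 to 15 without 1 sample, 1 without technical replicate 1 or 2 and 145 with libraries. The 2 calls between genotypes became 1 with the 10 CPM filter, 116 with DESeq2, 1 with limma-voom, 0 in the groups alone, 0 to 1 without 1 sample, 0 without technical replicate 1, 2 or 3, 0 with lane 1 alone, 75 with libraries and 1 without WT saline 5 and 6 (chosen after the data were seen). Against KO naive and KO saline the sample numbers differ, so the replicate block was the technical replicate number; with it there were 2109, 136 and 57 calls in the 3 comparisons. Between genotypes sample numbers repeat, but same-numbered samples share only a number: their deviations from the group means correlated at -0.175 to 0.157 over genes, and that block, added after the data were seen, left 0 calls (621 at an unadjusted p under 0.05). Shares kept their direction, at 0.769 to 1.06 percentage points for ribosomal and 0.101 to 0.682 for mitochondrial genes without 1 sample. Of 93 called genes named, 92 kept their sign in all 22 settings and 16 were called in each. Signs turned for Apoe (0.10), Cdkn1a (0.70), Cx3cr1 (-0.75, adjusted p = 0.0326), Cd72 (0.013) and Fam3c (0.097) with WT naive, and Cd72 (0.157) and Fam3c (0.1097) without technical replicate 1. Without 1 sample, Cd72 ranged from -0.541 to 0.053 (0.017 without KO naive 3), Fam3c from -0.179 to 0.019 and C4b from -0.20 to 0.90; of all these only Apoe was called against KO naive in all samples. The cause was not tested. Every sample held at least 45072898 counts, but 3 samples a group limit what could be called, and cisplatin, injection and AIBP cannot be told apart against naive.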
